A study of Danio rerio with 25 samples.

Results

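miR-22a and miR-103 are conserved vertebrate miRNAs that were present at high counts in every library of an ageing series of zebrafish brain. They were taken from the deposited hairpin count table by name, as the entries dre-mir-22a and dre-mir-103. Each name has 1 entry, so that 2 of 217 miRNA names (2 of 346 hairpin entries) are described. The pair was chosen by measured abundance, that is its mean level in these libraries, with earlier results of these data known, and levels and ranks are therefore given as a description without a test. The upward slope of miR-22a with age was among those earlier results, and its call is no independent support.

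miRNAs are short RNAs that guide Argonaute proteins to messenger RNAs and lower their translation and stability, largely through pairing of the seed near their 5′ end. In mammals miR-22 is known from heart and brain and represses, among others, the histone deacetylase HDAC4. miR-103 and its close relative miR-107 lie within pantothenate kinase (PANK) genes of vertebrates. In mice they restrain insulin signalling through caveolin-1, and in human cells they repress Dicer. By seed they are related to miR-15 and miR-16, which restrain cell-cycle genes.

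Small RNA was sequenced from brains of male zebrafish (Danio rerio) of strain AB JxTü at 6, 12, 24, 36 and 42 months, with 5 libraries per age and 25 in all. No transgene is named at 6 and 24 months, whereas the labels name Tg(flk:mCherry) at 12, Tg(pu.1:GFP) at 36 and Tg(wt1a:GFP) at 42 months, reporters that carry the names of an endothelial, a myeloid and a Wilms tumour gene. Named transgene and age therefore cannot be told apart except at 24 against 6 months. Titles of the 6-month libraries hold a pair of numbers each, unlike those of other ages, and whether these libraries are pools is not stated. If they are, pooling and age cannot be told apart in any pair with 6 months, 24 against 6 months included. Nothing beyond the labels says that the libraries come from separate animals, and p-values measure the spread between libraries, which may be in part technical. Total counts ran from 3983783 to 20924118 per library. All 6 neural miRNAs of a marker list were detected, at a summed level of 144104 to 191736 CPM (counts scaled to a common library size) per library. Marker sums here and below are scaled by library totals alone, whereas levels of single miRNAs also carry a factor for library composition. In 7 libraries the epithelial miR-200 family or the skin miRNAs miR-203 and miR-205 summed to more than 2000 CPM. These libraries are called epithelial-rich here; they are replicates 1, 2 and 5 of the 6-month, 3, 4 and 5 of the 12-month and 1 of the 36-month fish.

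miR-22a was among the leading miRNAs of the brain. Its mean level was 18092 ± 2953 CPM (SD, n = 25), which placed it 11th of the 197 miRNAs tested, at 1.81% of the summed level. Its counts lay between 71467 and 351529 per library, and its place within a library between 8th and 18th. Just above it by mean level stood miR-27b (24489 CPM), the neuronal activity miRNA miR-132 (22173 CPM) and miR-724 (21970 CPM). Just below stood miR-181b (17622 CPM), miR-222a (16938 CPM) and miR-92b (15782 CPM).

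miR-103 stood lower, outside the 30 most abundant miRNAs. Its mean was 3174 ± 378 CPM (SD, n = 25), the 48th of 197 and 0.317% of the summed level, and its counts lay between 11506 and 72656. It ranked between 42nd and 51st within a library. The miRNAs around it were miR-10d (3332 CPM), miR-458 (3234 CPM) and miR-16b (3191 CPM) above, and miR-153b (2818 CPM), miR-187 (2815 CPM) and miR-22b (2590 CPM) below. In every library miR-22a exceeded miR-103, by 4.07 to 8.03 times in counts.

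**Figure D1:**
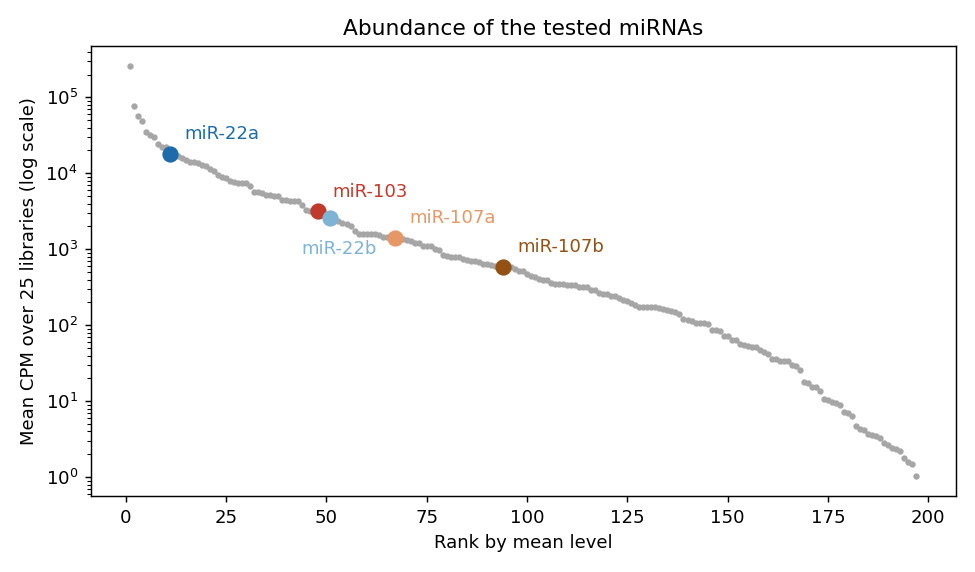
Mean CPM over 25 libraries (log axis) of the 197 tested miRNAs against their rank by mean level, with miR-22a, miR-103 and their name relatives coloured. miR-22a stands 11th, miR-103 48th, miR-22b 51st, miR-107a 67th and miR-107b 94th.

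The libraries of an age lay close together for miR-103. The pooled SD of log2 CPM within an age was 0.12 for miR-103 and 0.20 for miR-22a, where the median was 0.18 over the 30 most abundant miRNAs and 0.25 over all 197. Over all 25 libraries the coefficient of variation was 11.9% for miR-103 and 16.3% for miR-22a, against a median of 21.4% over all tested miRNAs. The median of the 30 most abundant miRNAs was 15.4%, and among these miR-22a stood 19th from the lowest.

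miR-22a was lowest at 12 months and highest at 42 months. At 6 months its levels in replicates 1 to 5 were 17929, 15059, 17973, 16762 and 16643 CPM, a mean of 16873 ± 1191 (SD, n = 5). At 12 months they were 14100, 17328, 14355, 18084 and 13864 CPM, a mean of 15546 ± 1997. Of the 12-month libraries 3 lay below the whole 6-month range, replicate 2 inside it and replicate 4 just above it.

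At 24 months the levels of miR-22a were 16709, 18268, 21831, 16417 and 22909 CPM (mean 19227 ± 2979, n = 5). At 36 months they were 21434, 14256, 17293, 15583 and 22363 CPM (mean 18186 ± 3571). Both of these ages spread widely, and their ranges overlapped with those of every other age. At 42 months the levels were 24807, 20294, 19312, 19028 and 19693 CPM (mean 20627 ± 2384), with replicate 1 far above the other 4. In these TMM-scaled levels all 5 libraries of 42 months lay above all 5 of 6 months and all 5 of 12 months; ranges that do not overlap were found for 26.9% and 5.58% of the 197 miRNAs in these pairs. As a share of counts the ranges overlapped at 42 against 6 months (1.85% to 2.47% against 1.68% to 1.88%).

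**Figure D2:**
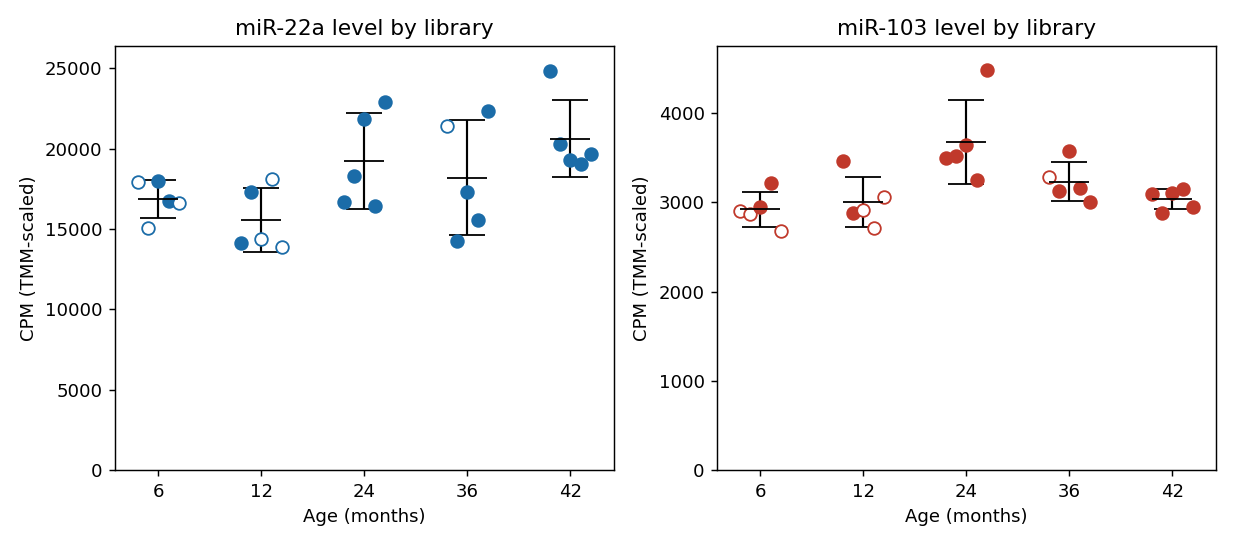
Level of miR-22a (left) and miR-103 (right) in TMM-scaled CPM by age in months, 1 point per library with the mean and SD of 5 libraries; open points are the 7 epithelial-rich libraries. The 42-month libraries of miR-22a (19028 to 24807 CPM) lie above all 6- and 12-month libraries, and the 24-month libraries of miR-103 (3248 to 4479 CPM) above all 6-month libraries.

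Over the 5 ages miR-22a rose by 0.10 log2 units per year (SE 0.035, n = 25, edgeR quasi-likelihood test, Benjamini-Hochberg adjusted p 0.0397). A linear trend was called for 21.3% of the 197 miRNAs and an upward one for 7.61%. Among the 30 most abundant miRNAs 7 were called, all 7 upward, and the slope of miR-22a was the 8th highest of the 30. Their median slope was 0.050 per year, that of all tested miRNAs -0.0061.

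The trend of miR-22a lay near the threshold. Without the 42-month group the slope was 0.057 per year (adjusted p 0.445). Without the 6-month group it was larger, 0.13 (SE 0.051), and was not called (adjusted p 0.0968). Leaving out any 1 of 9 libraries ended the call, with slopes of 0.092 to 0.105 and adjusted p between 0.0503 and 0.0733: replicates 2 and 5 of 6 months, 1, 3 and 5 of 12 months, 5 of 36 months and 1, 2 and 5 of 42 months. Scaled by library totals alone, the slope was 0.073 (adjusted p 0.0817), and without miR-181a, the most abundant miRNA, in those totals it was 0.054 (adjusted p 0.234).

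Between ages, 42 against 12 months was the pair in which miR-22a was called: 0.41 on the log2 scale (SE 0.12, adjusted p 0.0299), a 1.33-fold higher level at 42 months, in edgeR's quasi-likelihood test. In this pair 16.8% of miRNAs were called and 6.09% were called higher. As a share of counts, which uses no scaling factor, miR-22a took 1.85% to 2.47% in the 42-month and 1.35% to 1.84% in the 12-month libraries. These ranges all but touched, at 1.846% in 42-month replicate 3 and 1.845% in 12-month replicate 4. How many of all miRNAs have separate ranges on this scale was not counted. Without 12-month replicate 3 or 5 the adjusted p was 0.0606 and 0.0676. Without the 7 epithelial-rich libraries, 3 of them of 12 months, the change was 0.42 (SE 0.17, adjusted p 0.288).

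In the other pairs miR-22a did not pass the test. The change was 0.29 at 42 against 6 months (SE 0.12, adjusted p 0.0705), where 35.5% of miRNAs were called and 14.2% higher, and 0.19 at 24 against 6 months (SE 0.12, adjusted p 0.228), the pair with no transgene named. The last value was 0.010 with library totals alone and -0.019 when miR-181a was also taken out of the totals. At 42 against 6 months the call depended on several settings: the change was 0.32 in a fit of those 10 libraries alone (adjusted p 0.0108), 0.31 with DESeq2 (adjusted p 0.0364) or with its size factors in edgeR (adjusted p 0.0422), and 0.34 with no filter (adjusted p 0.0293). In the order 12, 6, 36, 24 and 42 months by mean level, no neighbours passed the test, with adjusted p between 0.496 and 0.793. That order was taken from the same means and so picks close pairs, which makes such an outcome likely beforehand. In the remaining 5 pairs neither member passed the test, and 14.2% of miRNAs were called at 12 against 6, 15.7% at 36 against 6, 4.06% at 36 against 12, 4.57% at 36 against 24 and 0.508% at 42 against 36 months. The test of any difference between the 5 ages gave an adjusted p of 0.0587, in which 47.7% of miRNAs were called.

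miR-103 was highest at 24 months, and no trend was called for it. At 6 months its levels in replicates 1 to 5 were 2908, 2868, 2943, 3220 and 2680 CPM (mean 2924 ± 194, n = 5), and at 12 months 3461, 2881, 2909, 2708 and 3062 CPM (mean 3004 ± 284). At 24 months they were 3498, 3517, 3639, 3248 and 4479 CPM (mean 3676 ± 471), with replicate 5 well above the other 4. All 24-month libraries exceeded all 6-month libraries, and 4 of the 5 exceeded all 12-month libraries. Ranges did not overlap for 17.8% of the miRNAs at 24 against 6 months.

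At 36 months miR-103 stood at 3286, 3130, 3574, 3165 and 3004 CPM (mean 3232 ± 216). At 42 months it stood at 3090, 2885, 3108, 3152 and 2948 CPM (mean 3037 ± 114), the tightest group of the 5. All 42-month libraries lay inside the 12-month range and below all 24-month libraries, a pair in which the ranges of 4.57% of miRNAs did not overlap.

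miR-103 differed between ages (edgeR quasi-likelihood test, adjusted p 0.0125 for any difference, a call made for 47.7% of miRNAs). It also departed from a straight line with age (adjusted p 0.0196, a call made for 25.9% of miRNAs). Both calls were lost with library totals alone (adjusted p 0.0984 and 0.0829), without the epithelial-rich libraries (0.189 and 0.171) and with epithelial covariates (0.0730 and 0.0810). Its slope was 0.029 log2 units per year (SE 0.030, adjusted p 0.483), and 0.0017 with library totals alone. At 24 against 6 months it rose by 0.33 on the log2 scale, 1.26-fold (SE 0.078, adjusted p 0.00626), in a pair in which 32.0% of miRNAs were called and 13.7% were called higher. Among the 30 most abundant miRNAs, which do not include miR-103, 11 were called there, all 11 higher, with a median change of 0.26. At 24 against 12 months miR-103 rose by 0.29 (SE 0.078, adjusted p 0.0203), where 10.2% of miRNAs were called and 4.06% higher. In this pair the change of miR-22a was as large, 0.31, but was not called (SE 0.12, adjusted p 0.0963 in the same test). The difference between the members was not tested. The fall of miR-103 from 24 to 42 months, -0.28 (SE 0.078), missed the threshold (adjusted p 0.0601), in a pair with 1.02% of miRNAs called. In the order 6, 12, 42, 36 and 24 months by mean level of miR-103, no neighbours passed the test (adjusted p from 0.154 to 0.936). The lowest was that of 36 against 24 months, with a change of -0.19 (SE 0.078). Here too the order was taken from the same means, which picks close pairs.

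The size of the 24-month rise of miR-103 depended on how libraries were scaled. TMM factors, which correct the library total for the composition of the library, ran from 0.888 to 0.989 at 24 months and from 1.005 to 1.125 at 6 months. As a share of counts, miR-103 took 0.343% ± 0.0313 (SD, n = 5, 0.321% to 0.398%) at 24 and 0.309% ± 0.0146 (0.289% to 0.324%) at 6 months, and these ranges overlapped. With library totals alone the change at 24 against 6 months was 0.15 (SE 0.063, adjusted p 0.0643), and it was 0.16 (adjusted p 0.0819) at 24 against 12 months. Under that scaling the median log2 change of all miRNAs at 24 against 6 months was -0.14 in place of 0.036. Without 24-month replicate 5 the adjusted p at 24 against 12 months was 0.0504, and without 12-month replicate 4 it was 0.0671.

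Markers of other cell types also differed between these libraries, and values are given for the pairs in which a member was called. The 6 miR-200 family miRNAs summed to 472 to 9033 CPM at 6 months and 90.1 to 348 CPM at 24 months, and the 3 skin miRNAs to 488 to 3861 and 124 to 648 CPM. The red blood cell miRNAs miR-144 and miR-451 summed to 1299 to 2711 CPM at 6 and 526 to 1259 CPM at 24 months. The 4 leukocyte miRNAs summed to 1299 to 2975 and 1037 to 1209 CPM, the 5 muscle miRNAs to 1023 to 2405 and 876 to 1394 CPM, and the 4 of liver and gut to 154 to 420 and 216 to 491 CPM at 6 and 24 months. On library totals, blood and leukocyte ranges thus did not overlap in this pair, nor did those of the miR-200 family. The gap was narrow for blood, 1259 to 1299 CPM, and for leukocytes, 1209 to 1299 CPM. Whether these ranges stay apart with TMM factors, which were lower at 24 than at 6 months, was not counted. In TMM-scaled levels 17.8% of single miRNAs had separate ranges in this pair.

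At 12 and 42 months the miR-200 family summed to 141 to 2900 and 71.9 to 462 CPM and the skin miRNAs to 343 to 5185 and 57.1 to 471 CPM. Red blood cell miRNAs summed to 506 to 1046 and 584 to 872 CPM, and leukocyte miRNAs to 1256 to 2069 and 1232 to 1671 CPM. Muscle miRNAs summed to 1009 to 1905 and 876 to 1100 CPM, and those of liver and gut to 215 to 1101 and 170 to 1275 CPM. The ranges of all 6 lists overlapped between 12 and 42 months. Between 12 and 24 months those of the leukocyte list did not overlap and those of the other 5 lists did. The leukocyte gap was narrow, from 1209 to 1256 CPM on library totals. Whether it stays with TMM factors, and how many miRNAs have separate ranges in this pair, was not counted. None of these markers was at 0 over the series. In bulk tissue, fewer cells of a type and less RNA per cell cannot be told apart. Without the 7 epithelial-rich libraries the change of miR-103 at 24 against 6 months was 0.24 (SE 0.11, adjusted p 0.193), and with both epithelial sums as covariates 0.24 (SE 0.094, adjusted p 0.180). For miR-22a the slope was 0.090 per year (SE 0.048, adjusted p 0.274) and 0.088 (SE 0.038, adjusted p 0.139) in these settings. The part of blood, leukocyte, muscle, liver and gut content in these results was not tested.

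**Figure D3:**
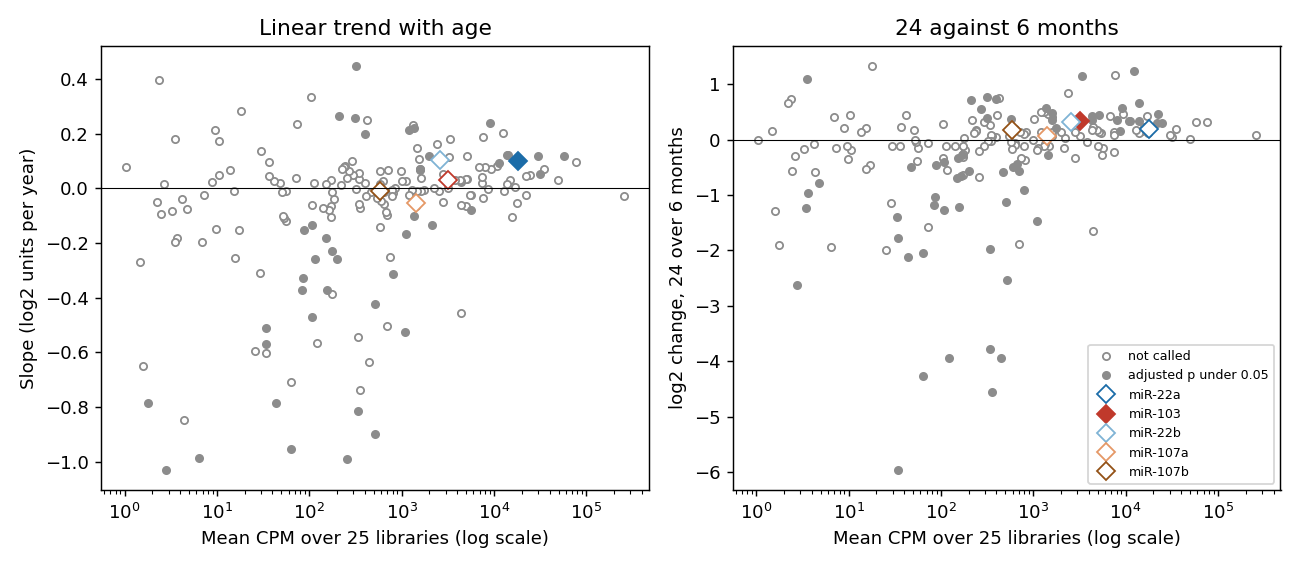
Slope with age in log2 units per year (left) and log2 change at 24 against 6 months (right) of the 197 tested miRNAs against mean CPM (log axis); filled symbols passed an adjusted p of 0.05. miR-22a is filled on the left (0.10 per year) and miR-103 on the right (0.33), and both changes are small beside those of many rarer miRNAs.

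**Figure D4:**
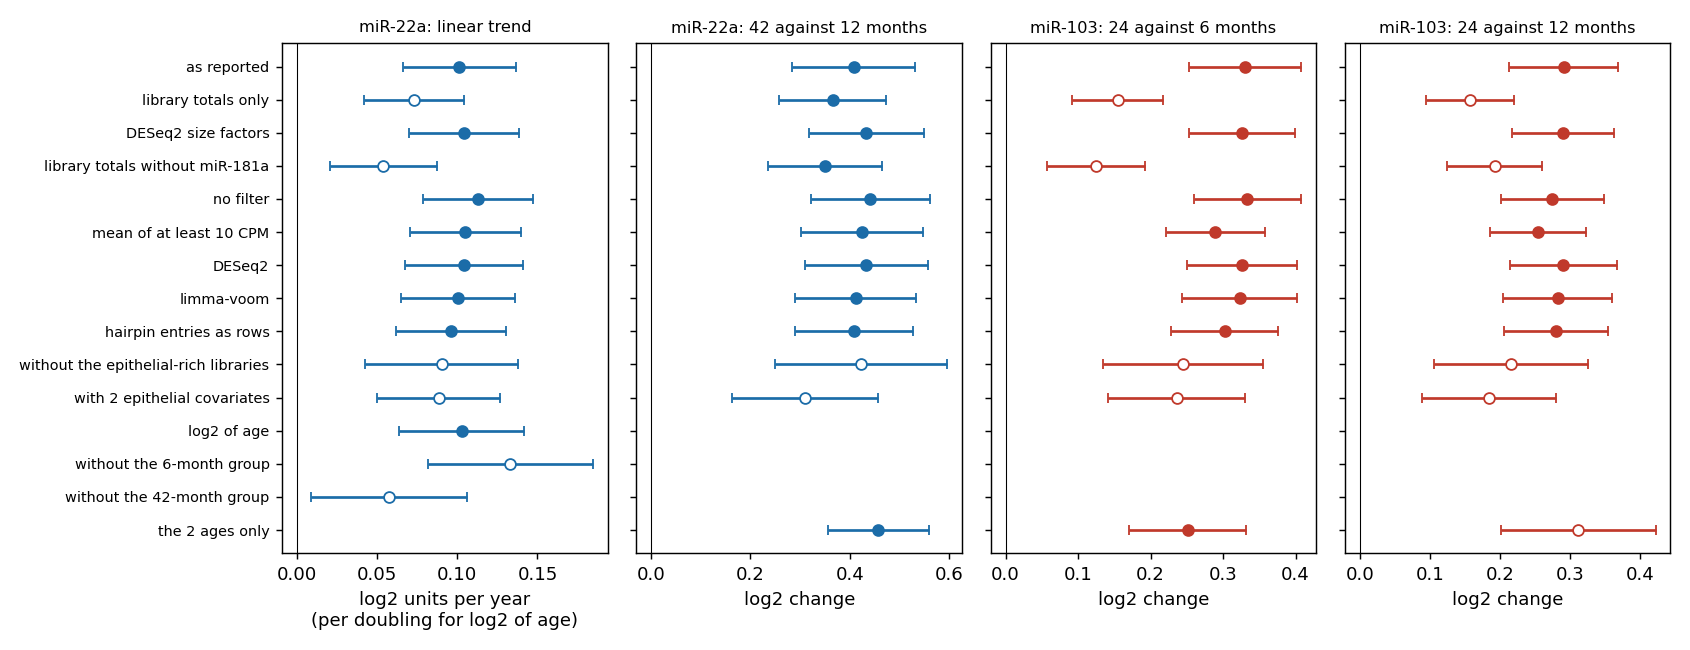
Slope of miR-22a with age and log2 changes of miR-22a at 42 against 12 months and of miR-103 at 24 against 6 and 24 against 12 months (bars are SE) under each processing setting; filled points passed an adjusted p of 0.05. Each value plotted is above 0, and library totals move miR-103 at 24 against 6 months from 0.33 to 0.15.

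Name relatives were set beside the members. miR-22b, the paralog of miR-22a, averaged 2590 ± 433 CPM (SD, n = 25). By age its mean was 2188 ± 232 CPM at 6, 2479 ± 470 at 12, 2737 ± 495 at 24, 2734 ± 450 at 36 and 2810 ± 262 at 42 months. Its slope of 0.10 per year (SE 0.038) did not pass the test (adjusted p 0.0523), while its change of 0.36 at 42 against 6 months did (SE 0.14, adjusted p 0.0472). The difference between the slopes of miR-22a and miR-22b, both 0.10, was not tested. The count ratio of miR-22a to miR-22b in a library was 7.74 ± 0.356 (SD, n = 5) at 6, 6.51 ± 1.797 at 12, 7.14 ± 1.13 at 24, 6.66 ± 0.785 at 36 and 7.36 ± 0.678 at 42 months. Of the 10 pairs of ages, 36 against 6 months gave the smallest p for this ratio (exact permutation p 0.0317, adjusted 0.132 over the 30 ratio tests, which were chosen after seeing the data).

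miR-107a and miR-107b, which resemble miR-103 so closely that reads may be shared among the 3, were rarer, at 1427 ± 143 and 588 ± 61.2 CPM (SD, n = 25). In RefSeq's table of the GRCz12tu assembly miR-103 lies within the span of pank2, miR-107a within that of pank1b and miR-107b within that of pank1a, all pantothenate kinase genes. miR-107a averaged 1471 ± 141 CPM at 6, 1452 ± 86.6 at 12, 1533 ± 187 at 24, 1387 ± 79.3 at 36 and 1293 ± 110 at 42 months. miR-107b averaged 578 ± 66.3, 565 ± 32.7, 656 ± 76.5, 594 ± 36.9 and 545 ± 28.6 CPM at these ages, so that its mean too was highest at 24 months. Neither passed the test at 24 against 6 months, with log2 changes of 0.060 (SE 0.082, adjusted p 0.572) for miR-107a and 0.18 (SE 0.085, adjusted p 0.102) for miR-107b.

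The balance between miR-103 and miR-107a needs no scaling between libraries, and it separated the 24-month libraries from the younger ones by range. The count ratio in replicates 1 to 5 was 2.00, 2.16, 1.92, 1.92 and 1.97 at 6 months and 2.24, 1.98, 2.15, 1.97 and 2.00 at 12 months. It was 2.44, 2.42, 2.31, 2.39 and 2.44 at 24 months, and every 24-month library stood above every younger one. The means were 2.33 ± 0.153 at 36 and 2.36 ± 0.142 at 42 months, near the 24-month mean of 2.40 ± 0.0546. In two-sided exact permutation tests of the log2 ratio, 24 against 6, 42 against 6 and 24 against 12 months each gave p = 0.00794, the smallest that 252 splits of 5 against 5 libraries allow. These tests were added after the values were seen, for the ratios of each member to its relatives in all 10 pairs of ages. Adjusted over these 30 tests the 3 stood at 0.0794, and none of the 30 passed. Even at the smallest possible p, a test could pass only if more of the 30 had also reached low p-values. This outcome therefore does not decide whether the ratio differs in any 1 pair. Toward miR-107b the ratio was 5.08 ± 0.297 at 6 and 5.60 ± 0.264 at 24 months (exact permutation p 0.0397, adjusted 0.132). Its ranges overlapped, at 4.78 to 5.51 at 6, 5.14 to 5.66 at 12 and 5.22 to 5.84 at 24 months. The ratio of miR-107a to miR-107b, which leaves miR-103 out, also separated these ages. It was 2.45 to 2.66 at 6, 2.48 to 2.63 at 12 and 2.16 to 2.41 at 24 months. The separation is thus not particular to miR-103. How many ratios of other miRNAs have separate ranges in these pairs was not counted. For single miRNAs in CPM the share was 17.8% at 24 against 6 months.

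**Figure D5:**
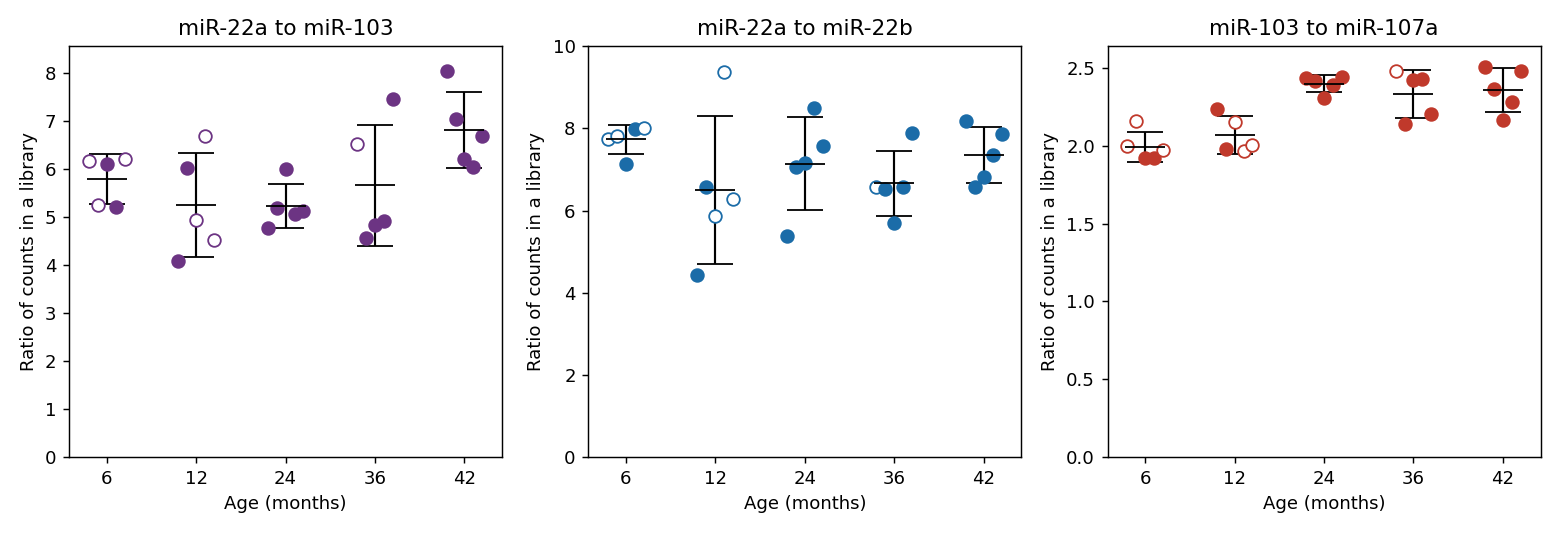
Count ratios within a library by age in months for miR-22a to miR-103, miR-22a to miR-22b and miR-103 to miR-107a, 1 point per library with mean and SD of 5; open points are epithelial-rich libraries. The ratio of miR-103 to miR-107a is 1.92 to 2.24 in 6- and 12-month libraries and 2.31 to 2.44 at 24 months.

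Between the members themselves, the count ratio of miR-22a to miR-103 was 5.79 ± 0.512 (SD, n = 5) at 6, 5.25 ± 1.08 at 12, 5.23 ± 0.459 at 24, 5.66 ± 1.26 at 36 and 6.80 ± 0.791 at 42 months. Its mean was highest at 42 months, where the 5 libraries (6.04 to 8.03) lay just above all 24-month libraries (4.78 to 6.00). They overlapped with those of 6 (5.21 to 6.21), 12 (4.07 to 6.68) and 36 months (4.56 to 7.44). The ratio is a description of a chosen pair and was not tested. How many ratios of other miRNAs have separate ranges at 42 against 24 months was not counted. For single miRNAs in CPM that share was 4.57%.

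Of the miR-15 and miR-107 group, the miRNAs with seeds related to that of miR-103, 10 members besides miR-103 were tested. In the linear trend 4 of the 10 were called, 1 higher and 3 lower, where 21.3% of all miRNAs were called and 13.7% were called lower. Named after their values were seen, these were miR-15a (0.21 per year) and, falling, miR-15b (-0.42), miR-15c (-0.57) and miR-457a (-0.47). At 24 against 6 months 3 of the 10 were called, all 3 lower, where 32.0% of all miRNAs were called and 18.3% were called lower. The share called in the group was thus 40% in the linear trend, above that of all miRNAs, and 30% at 24 against 6 months, near it. These shares rest on 10 members, and their difference from all miRNAs was not tested. miR-15b went from 812 ± 94.1 CPM at 6 to 373 ± 31.6 CPM at 24 months. The more abundant miR-16b stood at 3109 ± 453 CPM at 6 and 3257 ± 1145 CPM at 24 months. Over the 10 the median log2 change in this pair was 0.059, so that the group did not move in one direction.

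The miRNAs whose pattern over the 25 libraries was most like each member were named by Pearson's r of log2 CPM over the 174 others whose mean reached 10 CPM. The libraries share their scaling and depth with both miRNAs of a pair. For miR-22a the closest was the neuroendocrine miRNA miR-7a (r = 0.82, rho = 0.77, permutation p 1e-05 for both, the smallest that 100000 permutations can give; adjusted over the 174, 8.70e-04 and 0.00174). Next came miR-7b (r = 0.75, permutation p 1e-05, adjusted 8.70e-04; rho = 0.71, permutation p 2.3e-04, adjusted 0.0162) and miR-458 (r = 0.71, permutation p 7e-05, adjusted 0.00406; rho = 0.67, permutation p 4.1e-04, adjusted 0.0178). Without the 2 libraries farthest from the median of miR-22a, r was 0.76, 0.70 and 0.63. With the mean of each age taken out of both miRNAs, r was 0.76, 0.69 and 0.69, so that the likeness held among libraries of the same age.

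For miR-103 the closest was its relative miR-107b (r = 0.86, permutation p 1e-05, adjusted 0.00174; rho = 0.76, permutation p 4e-05, adjusted 0.00609), with r of 0.74 without the 2 farthest libraries and 0.83 with age means taken out. Reads shared between these relatives would raise this value, and how far they are shared is not known here. The others were miR-132 (r = 0.72, permutation p 1e-04, adjusted 0.00348; rho = 0.59, permutation p 0.0022, adjusted 0.0429) and miR-30d (r = 0.71, permutation p 5e-05, adjusted 0.00348; rho = 0.61, permutation p 0.0016, adjusted 0.0429). Without the 2 farthest libraries these were 0.53 and 0.59, and with age means taken out 0.56 and 0.51.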

How the data were processed

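The authors deposited raw read counts per miRNA hairpin in 25 libraries, made with the TruSeq small RNA kit per the labels' protocols. The tools named, per the submitters' processing notes, are BWA 0.7.12-r1039, CASAVA 1.8.4, SAMtools 1.3.1-9 and Trimmomatic 0.36. Build, annotation, counting tool and treatment of reads with several matches were not given in the sources used here, and the count of a hairpin pools its arms. Copies were summed by name, and filterByExpr (count minimum 10, total minimum 15) kept 197 of 217 miRNAs. Counts were fitted over all 25 libraries in edgeR 4.0.16 (R 4.3.3) with TMM and robust quasi-likelihood, checked on simulated data. Adjusted p-values are Benjamini-Hochberg over the 197, and an adjusted p under 0.05 is a call. Standard errors come from the F statistic; correlations used log2 CPM with a prior count of 2. limma 3.58.1 and DESeq2 1.42.0 were alternatives. No pair of libraries of an age agreed within sampling noise (chi-square per degree of freedom at least 113). Named miRNAs are the members, their name relatives, 3 neighbours by rank on each side and the 3 most alike. Members and lists were chosen with earlier results of these data known.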

Additional observations from a re-analysis of the deposited data

Results flagged for a closer look

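In a check of 50 groups of 5 libraries for a single library far from the other 4, which chance flags in about 1 group in 20, 6 were marked. miR-22a at 42 months had its highest library, replicate 1, at 24807 CPM, and miR-107b at 36 months its highest, replicate 3, at 658 CPM. The count ratio of miR-22a to miR-22b at 6 months had its lowest library at 7.13. The ratio of miR-107a to miR-107b had its lowest at 24 months at 2.16, its highest at 36 months at 2.56 and its highest at 42 months at 2.66.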

How the results depend on the processing

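No called value of miR-22a or miR-103 changed sign in any setting; the uncalled slope of miR-103 (0.029) ran from -0.020 to 0.062 over settings. No paired analysis was possible because replicates carry no number shared between ages. The slope of miR-22a (0.10) was not called with library totals (0.073), totals without miR-181a (0.054), without the epithelial-rich libraries (0.090), with epithelial covariates (0.088), without the 6-month group (0.13) or without the 42-month group (0.057), and ran from 0.092 to 0.12 without single libraries. Any difference for miR-22a (adjusted p 0.0587) was called with DESeq2 size factors (0.0322), no filter (0.0349) and DESeq2 (0.0146), with a range of 0.0329 to 0.107 without single libraries. At 42 against 6 months miR-22a (0.29) was called with DESeq2 size factors (0.31), no filter (0.34), DESeq2 (0.31) and the 2 ages alone (0.32), with 0.26 to 0.34 without single libraries. At 42 against 12 months (0.41) it was not called without the epithelial-rich libraries (0.42) or with covariates (0.31), with 0.38 to 0.47 without single libraries. For miR-103, any difference (adjusted p 0.0125) was lost with library totals (0.0984), without the epithelial-rich libraries (0.189) and with covariates (0.0730), and departure from a line (0.0196) with totals (0.0829), totals without miR-181a (0.0544), without the epithelial-rich libraries (0.171) and with covariates (0.0810). No single library ended either call (0.00485 to 0.0292 and 0.0101 to 0.0454). The rise at 24 against 6 months (0.33) was lost with totals (0.15), totals without miR-181a (0.12), without the epithelial-rich libraries (0.24) and with covariates (0.24), and kept without any single library (0.25 to 0.37). At 24 against 12 months (0.29) the call was lost in 5 of 11 settings. These were totals (0.16), totals without miR-181a (0.19), without the epithelial-rich libraries (0.22), covariates (0.18) and the 2 ages alone (0.31). Without single libraries the change was 0.22 to 0.35, and 2 of 25 such fits lost the call. The fall at 42 against 24 months (-0.28) was called with DESeq2 (-0.25) and covariates (-0.29), with -0.32 to -0.19 without single libraries. Settings that leave out libraries have fewer samples; for the others the cause was not tested. Over all 197 miRNAs the trend count (42) ran from 11 to 65 over the settings, that at 24 against 6 months (63) from 7 to 71, at 24 against 12 months (20) from 0 to 38, at 42 against 12 months (33) from 1 to 49, at 42 against 6 months (70) from 22 to 83, at 42 against 24 months (2) from 0 to 13, for any difference (94) from 25 to 114 and for departure (51) from 9 to 75. The lowest count of either member was 11506, and an effect of library depth on these values was not tested.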
